A study of Mus musculus with 10 samples.

Results

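Chemokines and their receptors were examined in the bladder RNA of mice that lack osteomodulin (OMD) or the related protein PRELP, both small leucine-rich proteoglycans of the extracellular matrix. The group comprised every protein-coding gene named as a CXC or CC chemokine or as a CXC or CC receptor, together with Cx3cl1, its receptor Cx3cr1 and the atypical receptors Ackr1 to Ackr4. These were 63 of the 55536 genes counted, of which 42 were ligands, 17 were signalling receptors and 4 were atypical receptors. Poly(A) RNA was sequenced from 4 wild type (WT) libraries, 3 libraries of genotype OMD-/- and 3 of PRELP-/-, all from C57BL/6 mice (the study's text names the host as C57BL/6J) of unstated age and sex and with no treatment named. The knockouts were constitutive, not limited to a tissue, and a β-galactosidase reporter stood under the promoter of the deleted gene. The sample records describe whole bladder tissue that was excised and homogenised, whereas the study's text speaks of isolated epithelia.

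Chemokines are small secreted or membrane-anchored proteins that guide leukocytes along gradients by binding G protein-coupled receptors. Constitutive members place resident cells within a tissue, inflammatory members recruit cells to sites of injury or infection, and lymphoid members bring B and T cells together. Atypical receptors bind chemokines without the usual signalling and remove or transport them. In the bladder wall the urothelium, the stroma, vessels and resident macrophages are all known sources.

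Libraries held between 20391437 and 46269079 counts, WT replicate 1 being the deepest and all others holding at most 25905707. Values are given as counts per 1e+06 reads (CPM), scaled by TMM over all libraries, and levels of different genes were compared only per kilobase of exon. Omd had 0 counts in all OMD-/- libraries and at most 12 in any WT library, which is too few for a firm check of the label. Prelp had 1.84 to 4.20 CPM in PRELP-/- and 215 to 317 CPM in WT. Markers of urothelium were abundant (umbrella cell genes summed to between 7317 and 18910 CPM), and so were those of fibroblasts (between 6281 and 16285 CPM), so the RNA was not that of epithelium alone. Pairs of libraries lay close together, namely WT replicates 1 and 2, WT replicates 3 and 4, OMD-/- replicates 2 and 3 and PRELP-/- replicates 2 and 3. PRELP-/- replicate 1 stood apart from all others, with 474 CPM of blood genes against 35.4 to 69.6 CPM elsewhere, and OMD-/- replicate 1 was closest to PRELP-/- replicate 2. Genes of the Y chromosome summed to 163 and 189 CPM in WT replicates 1 and 2 and to at most 0.0443 CPM in WT replicates 3 and 4, so WT held libraries with and without them. The corresponding sums were 120, 18.8 and 18.5 CPM in PRELP-/- and 18.1, 0.806 and 0.731 CPM in OMD-/-.

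The promoters shown first are those of the single member that passed in both knockouts, Ccl25, which has 2 annotated starts, and of 3 members chosen after their values were seen: Cxcl14 and Cx3cl1, which lay above WT in every library of both knockouts, and Cxcl13, which passed in OMD-/- alone. Each runs from 250 bases before to 50 after the start in RefSeq on GRCm38.p6, 5′ to 3′ on the gene's strand. Capitals mark matches, on either strand, to the partial interferon-stimulated response element GAAANNGAA, the STAT element GAS (TTCNNNGAA), the AP-1 element TGANTCA, the TATA element TATAAA or the NF-kB element by its consensus. TATAAA was added to the search after the sequences had been seen.
Ccl25 upstream start, chr8:4324960-4325259 (+): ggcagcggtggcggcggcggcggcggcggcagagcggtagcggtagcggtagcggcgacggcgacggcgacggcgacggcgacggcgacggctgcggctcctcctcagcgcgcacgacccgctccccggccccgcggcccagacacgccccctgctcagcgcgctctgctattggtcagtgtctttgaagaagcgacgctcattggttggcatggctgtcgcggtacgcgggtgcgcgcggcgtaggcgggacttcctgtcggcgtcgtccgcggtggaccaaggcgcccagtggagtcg
Ccl25 downstream start, chr8:4349338-4349637 (+): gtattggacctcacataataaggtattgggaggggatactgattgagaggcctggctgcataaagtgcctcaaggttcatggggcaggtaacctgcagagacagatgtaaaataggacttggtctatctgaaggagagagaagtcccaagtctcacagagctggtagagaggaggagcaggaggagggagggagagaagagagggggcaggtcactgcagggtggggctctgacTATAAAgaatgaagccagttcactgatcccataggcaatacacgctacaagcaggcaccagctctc
Cxcl14, chr13:56296502-56296801 (-): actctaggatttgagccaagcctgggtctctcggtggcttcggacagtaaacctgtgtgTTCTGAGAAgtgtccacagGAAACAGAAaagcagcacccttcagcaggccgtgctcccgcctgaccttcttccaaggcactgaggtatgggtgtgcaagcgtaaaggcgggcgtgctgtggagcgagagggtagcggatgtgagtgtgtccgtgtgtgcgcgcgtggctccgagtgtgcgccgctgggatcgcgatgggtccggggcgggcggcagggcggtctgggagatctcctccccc
Cx3cl1, chr8:94771930-94772229 (+): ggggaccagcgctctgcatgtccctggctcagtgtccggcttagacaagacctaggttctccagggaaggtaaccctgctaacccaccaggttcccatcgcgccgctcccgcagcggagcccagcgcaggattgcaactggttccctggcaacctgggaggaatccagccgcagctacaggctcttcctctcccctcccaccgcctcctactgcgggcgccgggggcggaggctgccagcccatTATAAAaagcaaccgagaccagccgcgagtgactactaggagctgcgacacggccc
Cxcl13, chr5:95956689-95956988 (+): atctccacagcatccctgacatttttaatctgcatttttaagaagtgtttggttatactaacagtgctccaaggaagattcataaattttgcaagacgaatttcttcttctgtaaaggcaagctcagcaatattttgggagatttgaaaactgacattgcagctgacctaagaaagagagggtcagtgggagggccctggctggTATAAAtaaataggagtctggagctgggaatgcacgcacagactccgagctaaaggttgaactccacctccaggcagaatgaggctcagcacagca

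TATAAA occurred 16 bases before the downstream start of Ccl25, 46 bases before that of Cxcl13 and 6 bases before that of Cx3cl1. Cxcl14 held no TATAAA but had GAAANNGAA 172 bases and TTCNNNGAA 191 bases before its start, and TTCNNNGAA is its own reverse complement, so it matched on both strands. The upstream start of Ccl25 had a GC content of 74%, against 51.7% at the downstream start, and matched none of the elements. Over all 32851 promoters of this length, GAAANNGAA was present in 8.56%, TTCNNNGAA in 8.30%, TGANTCA in 7.81%, the NF-kB element in 8.46% and TATAAA in 13.6%. Of 31 promoters listed for 28 tested members, 4 held GAAANNGAA, 2 TTCNNNGAA, 6 TGANTCA, 5 the NF-kB element and 11 TATAAA. A match describes letters within this window and was not tested as a binding site.

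In every library the ligand pool was dominated by Cxcl14 and Cxcl12, which together made up 78.5% to 88.4% of all ligand CPM. Cxcl14, a chemokine made constitutively by epithelia, stood at 179 CPM per kb in WT, and Cxcl12, the stromal ligand of Cxcr4, at 22.1 CPM per kb. The next levels in WT were those of the scavenger Ackr3 at 12.5, Ccl8 at 10.5, Cxcl16 at 8.91, Ccl6 at 6.10 and Cx3cl1 at 4.46 CPM per kb. Among signalling receptors the order in WT was Cx3cr1 at 3.70, Cxcr4 at 3.35, Ccr2 at 2.73 and Cxcr6 at 2.64 CPM per kb. The spread over WT libraries of these 4 receptors overlapped, so their order is not firm. Summed receptor CPM lay between 57.2 and 66.1 in 8 libraries and reached 113 and 109 in OMD-/- replicates 2 and 3.

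**Figure D1:**
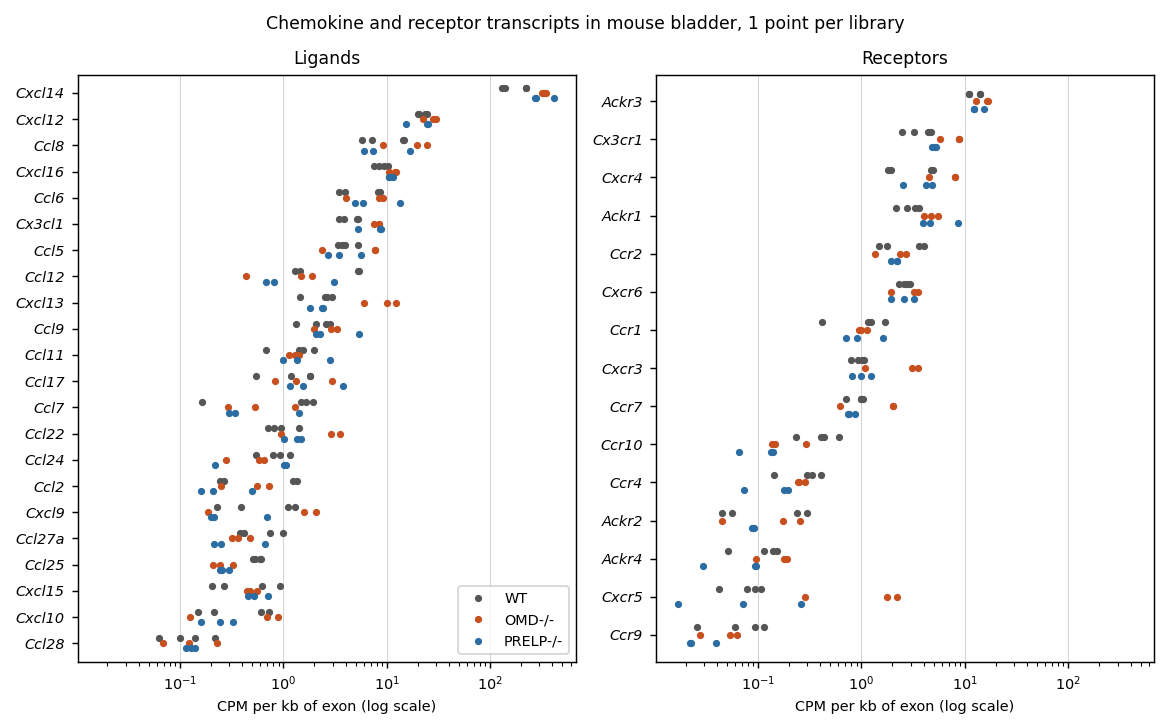
Levels of tested members as CPM per kb of exon on a log axis, 1 point per library, with ligands on the left and receptors on the right in order of the WT mean. Cxcl14 lies far to the right of all others, and Cxcr5 in OMD-/- is spread from near the WT points to far above them.

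Of the 63 genes, 38 passed the filter on low counts in the comparison of OMD-/- with WT, 36 in that of PRELP-/- with WT and 34 in the direct comparison of the knockouts. In OMD-/-, 10 of the 38 tested members passed at an adjusted p under 0.05 (edgeR quasi-likelihood test), 9 of them higher and 1 lower than WT. Over all 16647 genes tested in that comparison 29.4% passed, 14.3% higher and 15.1% lower, so the members that passed were no larger a share than among genes at large but lay mostly on the higher side. Their median log2 fold change was 0.31, against -0.000 for all genes. Tested ligands had a median log2 fold change of 0.30, signalling receptors 0.29 and atypical receptors 0.39. In PRELP-/-, 1 of 36 tested members passed, a lower one, against 7.29% of 16581 genes, 1.40% higher and 5.89% lower, and the members' median was -0.08, against 0.023 for all genes. The direction depended on the setting, since with DESeq2 5 members passed, 3 higher and 2 lower, and 1183 genes were higher and 1742 lower, and without PRELP-/- replicate 1 these were 2 members, 1 of each direction, and 1835 and 1972 genes. Both comparisons share the WT libraries. Groups did not overlap for 9 of 38 members in OMD-/-, against 38.9% of all genes, and for 7 of 36 in PRELP-/-, against 30% of all genes.

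**Figure D2:**
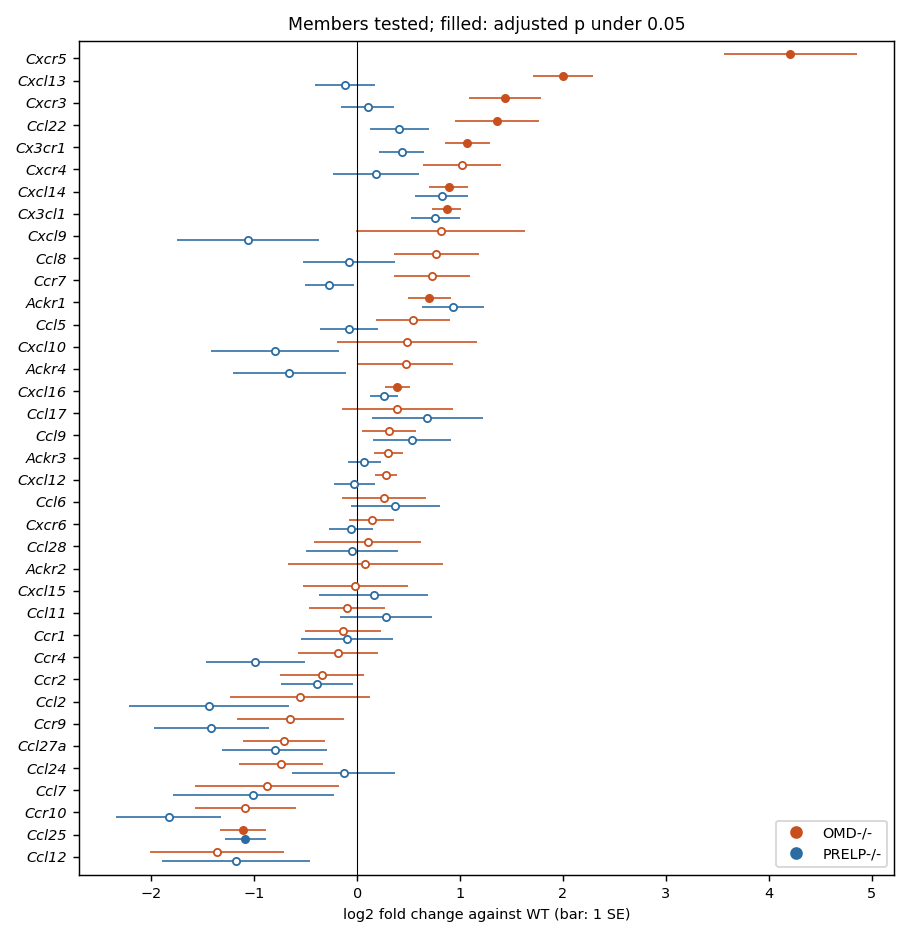
Log2 fold change against WT for tested members in OMD-/- (orange) and PRELP-/- (blue), with bars of 1 standard error and filled points where the adjusted p was under 0.05. Cxcr5, Cxcl13, Cxcr3 and Ccl22 lie farthest to the right in OMD-/-, while Ccl25 sits near -1.1 in both.

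Cxcl14 was the most abundant member and rose in OMD-/-. Its levels in WT were 408, 406, 239 and 254 CPM, in OMD-/- 575, 608 and 627 CPM and in PRELP-/- 751, 509 and 494 CPM. Every knockout library lay above every WT library, and WT replicates 3 and 4 were well below WT replicates 1 and 2. The log2 fold change was 0.89 (SE 0.19, adjusted p = 0.0064, edgeR), or 1.85-fold, in OMD-/- and 0.82 (SE 0.26, adjusted p = 0.0893, edgeR) in PRELP-/-, where it did not pass but did with DESeq2 (adjusted p = 0.0158), in the fit over all 3 groups and with limma-voom. Marker sums of urothelium and fibroblasts were also higher in both knockouts, but single markers differed. Log2 fold changes in OMD-/- and PRELP-/- were -0.05 and -0.09 for Trp63 (basal), 0.15 and -0.10 for Krt20 (umbrella) and 0.03 and -0.40 for Lum (fibroblast). None of these passed. Above 0 were 2 of 3 tested basal, 5 of 5 umbrella and 5 of 5 fibroblast genes in OMD-/-, and 3 of 4, 4 of 5 and 4 of 5 in PRELP-/-. Basal urothelium genes summed to 3020, 2983, 2344 and 2479 CPM in WT and to 4796, 3569 and 3496 CPM in PRELP-/-. Within each of these groups the order was that of Cxcl14. In OMD-/- they summed to 4277, 3086 and 3095 CPM, highest where Cxcl14 was lowest. Fibroblast genes summed to between 6281 and 7078 CPM in WT, 13427 and 16285 CPM in OMD-/- and 8300 and 15176 CPM in PRELP-/-. Umbrella cell genes summed to between 7317 and 8921 CPM in WT, 9326 and 12687 CPM in OMD-/- and 10661 and 18910 CPM in PRELP-/-, the highest being PRELP-/- replicate 1, which also held the most Cxcl14. That library had the lowest fibroblast sum of the 6 knockout libraries, 8300 CPM, and within WT the umbrella sums were 7317, 7520, 8921 and 8630 CPM, higher where Cxcl14 was lower. The part of these markers in the difference was not tested, and in bulk RNA more cells of a type and more RNA per cell cannot be told apart. The gene lies at 13:56288643-56296551 on the minus strand (GRCm38).

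Cxcl12 and its scavenging receptor Ackr3 did not pass in either knockout. Cxcl12 had 202, 190, 166 and 164 CPM in WT, 185, 229 and 244 CPM in OMD-/- and 126, 202 and 207 CPM in PRELP-/-, with log2 fold changes of 0.28 (SE 0.11) and -0.03 (SE 0.20). The lowest of all was PRELP-/- replicate 1, and the groups overlapped. Cxcr4, the signalling receptor of Cxcl12, had 8.92, 8.61, 3.24 and 3.50 CPM in WT, 8.20, 14.5 and 14.4 CPM in OMD-/- and 4.60, 8.62 and 7.67 CPM in PRELP-/-. Its difference between OMD-/- and WT, 1.02 on the log2 scale (SE 0.38, adjusted p = 0.077, edgeR), was within the reach of the split inside WT. Ackr3 had 36.7, 36.6, 47.2 and 47.1 CPM in WT, 42.6, 56.7 and 55.5 CPM in OMD-/- and 51.5, 41.5 and 41.0 CPM in PRELP-/-, with log2 fold changes of 0.30 (SE 0.14) and 0.07 (SE 0.16).

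Both membrane-anchored chemokines, Cx3cl1 and Cxcl16, rose in OMD-/- and lay above WT in every PRELP-/- library without passing there in the separate fit. Cx3cl1 holds monocytes and macrophages that carry Cx3cr1, and it had 20.5, 20.7, 15.3 and 13.6 CPM in WT, 29.8, 32.9 and 33.3 CPM in OMD-/- and 20.9, 35.0 and 34.0 CPM in PRELP-/-. PRELP-/- replicate 1 was barely above WT replicate 2, whereas the other knockout libraries were well clear of WT. Cx3cl1 differed from WT by 0.87 (log2, SE 0.14, adjusted p = 0.0016, edgeR) in OMD-/- and 0.76 (SE 0.24, adjusted p = 0.0899, edgeR) in PRELP-/-, where it passed without PRELP-/- replicate 1 (0.98, adjusted p = 0.00489, edgeR) and under the same 3 settings as Cxcl14. Blood endothelial genes, one known source of Cx3cl1, summed to 310, 312, 152 and 143 CPM in WT, 343, 373 and 391 CPM in OMD-/- and 204, 370 and 351 CPM in PRELP-/-, so WT replicates 3 and 4 were lowest in both. In OMD-/-, 4 of these 5 markers had log2 fold changes above 0 without passing. They were Pecam1 at 0.83 (SE 0.33), Cdh5 at 0.73 (SE 0.33), Kdr at 0.88 (SE 0.32) and Tie1 at 0.63 (SE 0.30). Egfl7 went the other way and was the 1 marker that passed (log2 -1.14, SE 0.14). Whether those markers account for Cx3cl1 was not tested.

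Its receptor Cx3cr1 moved in the same direction. It had 21.1, 19.9, 14.5 and 11.2 CPM in WT, 26.1, 39.4 and 39.6 CPM in OMD-/- and 23.6, 23.1 and 21.6 CPM in PRELP-/-. OMD-/- replicates 2 and 3 were far above all others, and the PRELP-/- libraries were just above the highest WT library. Against WT the log2 difference was 1.07 (SE 0.22, adjusted p = 0.0065, edgeR) in OMD-/- and 0.43 (SE 0.22, adjusted p = 0.26, edgeR) in PRELP-/-. Macrophage and monocyte genes summed to between 397 and 477 CPM in WT, to 467, 839 and 859 CPM in OMD-/- and to between 395 and 480 CPM in PRELP-/-. In OMD-/- 7 of 9 rose (14.3% of all genes did), among them C1qa by 1.28 and Csf1r by 1.13 on the log2 scale. In PRELP-/- 8 of 9 were above 0, and C1qa (0.80, SE 0.15) and C1qc (0.56, SE 0.14) passed, where 1.40% of all genes rose. Lyz2, the most abundant of the list, went the other way there without passing (-0.72, SE 0.23). Its mean was 215 CPM in WT and 132 CPM in PRELP-/-, which lowers the sum. The part of these markers in the rise of Cx3cr1 was not tested.

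Cxcl16, which binds Cxcr6 on T cells, had 25.5, 22.8, 28.5 and 30.9 CPM in WT, 32.1, 36.6 and 37.0 CPM in OMD-/- and 34.5, 31.6 and 31.7 CPM in PRELP-/-. The knockout libraries began only slightly above WT replicate 4. The log2 fold change was 0.39 (SE 0.12, adjusted p = 0.0309, edgeR) in OMD-/- and 0.26 (SE 0.14, adjusted p = 0.283, edgeR) in PRELP-/-, and 552 of its 3021 exon bases overlap Zmynd15 on the other strand. Its call in OMD-/- was lost under 5 of 15 alternatives, leaving out WT replicate 1 or 2 or OMD-/- replicate 2 or 3 among them. Cxcr6 itself had 4.43, 5.33, 4.96 and 5.67 CPM in WT, 3.72, 6.79 and 6.22 CPM in OMD-/- and 6.19, 3.73 and 4.96 CPM in PRELP-/-. It showed no difference that passed (log2 fold changes of 0.14, SE 0.22, and -0.06, SE 0.21).

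**Figure D3:**
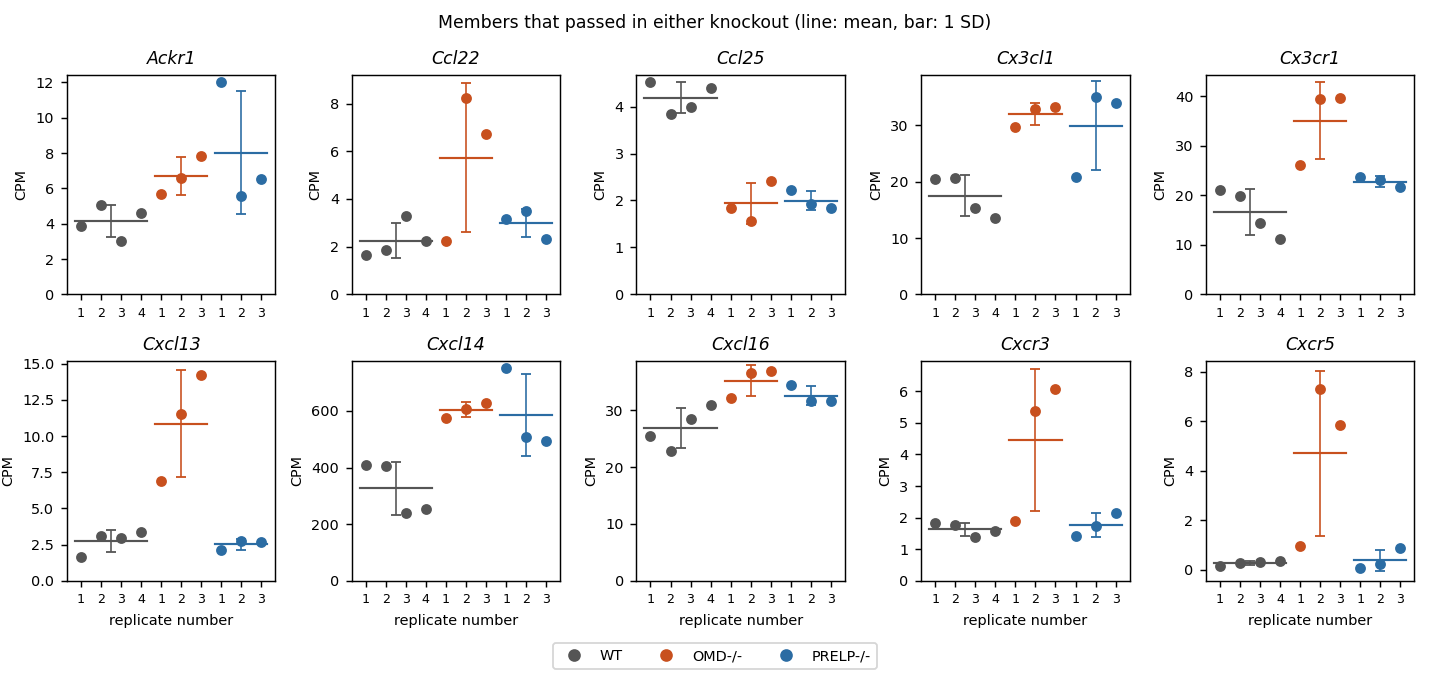
CPM in each library for the 10 members that passed in either knockout, with the mean and 1 SD of each group. Ccl25 is lower in all 6 knockout libraries, whereas Cxcl13, Cxcr3, Cxcr5 and Ccl22 are highest in OMD-/- replicates 2 and 3.

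Cxcr5 and Cxcl13, a receptor and ligand of B cell traffic, had the largest log2 fold changes of the 38 members tested in OMD-/-. Cxcl13, the chemokine that draws B cells into follicles, had 1.66, 3.06, 2.93 and 3.37 CPM in WT, 6.88, 11.5 and 14.2 CPM in OMD-/- and 2.10, 2.77 and 2.71 CPM in PRELP-/-. Each OMD-/- library was above each library of the other groups. The rise was 2.0 on the log2 scale (SE 0.29, adjusted p = 0.000874, edgeR), or 4.01-fold, and the difference between PRELP-/- and WT was -0.12 (SE 0.29). Cxcl13 lies at 5:95956951-95961068 on the plus strand.

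Cxcr5, the receptor of Cxcl13 on B cells and follicular helper T cells, was counted 7, 6, 7 and 8 times in WT but 20, 172 and 128 times in OMD-/-, which is 0.140, 0.262, 0.310 and 0.354 CPM against 0.943, 7.30 and 5.85 CPM. Almost all of the signal came from OMD-/- replicates 2 and 3. Against WT its log2 difference was 4.21 (SE 0.65, adjusted p = 0.00137, edgeR), or 18.6-fold. Cxcr5 passed the filter on low counts here only through the OMD-/- libraries. Its fold change and rank therefore rest on at most 8 counts per WT library and are imprecise. In PRELP-/- the gene had 0.0568, 0.240 and 0.873 CPM and did not pass the filter against WT. Cxcr5 shares 110 of 3332 exon bases with Bcl9l on the opposite strand, a gene at 172 CPM, and the strand setting of the counting is not known.

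Cxcr3, carried by effector T cells and plasma cells, had 1.82, 1.75, 1.37 and 1.59 CPM in WT, 1.89, 5.39 and 6.08 CPM in OMD-/- and 1.42, 1.72 and 2.16 CPM in PRELP-/-. OMD-/- replicate 1 was barely above WT replicate 1, so the rise of 1.44 (log2, SE 0.35, adjusted p = 0.0113, edgeR) came from replicates 2 and 3, and it no longer passed without either of these. Its ligands Cxcl9 and Cxcl10, both induced by interferon-γ, did not pass in either comparison. Cxcl9 ranged from 0.698 to 3.90 CPM in WT, from 0.566 to 6.26 CPM in OMD-/- and from 0.601 to 2.10 CPM in PRELP-/-. Cxcl10, part of which overlaps Art3, ranged from 0.283 to 2.01 CPM over all libraries.

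Ccl22, a product of dendritic cells and macrophages that attracts Ccr4-bearing T cells, had 1.64, 1.88, 3.28 and 2.22 CPM in WT, 2.22, 8.23 and 6.72 CPM in OMD-/- and 3.18, 3.49 and 2.34 CPM in PRELP-/-. OMD-/- replicate 1 lay inside the WT range. The log2 fold change in OMD-/- was 1.36 (SE 0.41, adjusted p = 0.0302, edgeR) and that in PRELP-/- 0.41 (SE 0.29, adjusted p = 0.399, edgeR). The call in OMD-/- was lost under 6 of 15 alternatives, with an adjusted p of up to 0.142 (edgeR, without OMD-/- replicate 2), and also without OMD-/- replicate 3 or WT replicate 1, 2 or 4. The gene lies at 8:94745590-94751699, beside Cx3cl1 at 8:94772009-94782427 and Ccl17 at 8:94810453-94812036. Of these 3 neighbours Ccl22 and Cx3cl1 passed in OMD-/-, while Ccl17, the other ligand of Ccr4, changed by 0.39 (log2, SE 0.54) and did not. Ccr4 had mean levels of 0.297, 0.261 and 0.149 CPM per kb in WT, OMD-/- and PRELP-/-, with a log2 difference of -0.99 (SE 0.48, adjusted p = 0.225, edgeR) in PRELP-/-.

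Ccr6 and Ccr7, which are carried by B cells, dendritic cells and T cells, followed the same library pattern without a call. Ccr6 had 0, 1, 1 and 3 counts in WT, 6, 54 and 61 counts in OMD-/- and 0, 5 and 4 counts in PRELP-/-, and it was too low for the test. Its ligand Ccl20 had no count in any library. Ccr7 ranged from 1.42 to 2.07 CPM in WT and had 1.23, 3.99 and 4.02 CPM in OMD-/-, which differed from WT by 0.73 (log2, SE 0.37, adjusted p = 0.159, edgeR). The Ccr7 ligands Ccl19, Ccl21a and Ccl21b had 0 counts in every library, but each is annotated as several near-identical gene copies, so reads from them could have been lost in counting and the zeros are uncertain.

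Leukocyte markers varied between the same libraries. The B cell and plasma cell genes summed to between 7.64 and 17.4 CPM in WT, to 38.0, 196 and 194 CPM in OMD-/- and to 3.64, 26.0 and 26.3 CPM in PRELP-/-, and 6 of 6 rose in OMD-/-. T cell genes summed to between 11.8 and 15.1 CPM in WT, to 16.0, 45.9 and 46.4 CPM in OMD-/- and to 16.7, 19.8 and 18.2 CPM in PRELP-/-. In OMD-/- 5 of 7 rose, among them Cd4 by 1.77 on the log2 scale, and 14.3% of all genes rose in that comparison. None of the 7 passed in PRELP-/-, where only 1.40% of all genes rose, so this gives no contrast between the knockouts. Of the 38 tested members, 35 were higher in both OMD-/- replicates 2 and 3 than in replicate 1, against 39.1% of all tested genes. The part of these cell markers in the differences of Cxcl13, Cxcr5, Cxcr3, Ccl22 and Ccr6 was not tested.

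**Figure D4:**
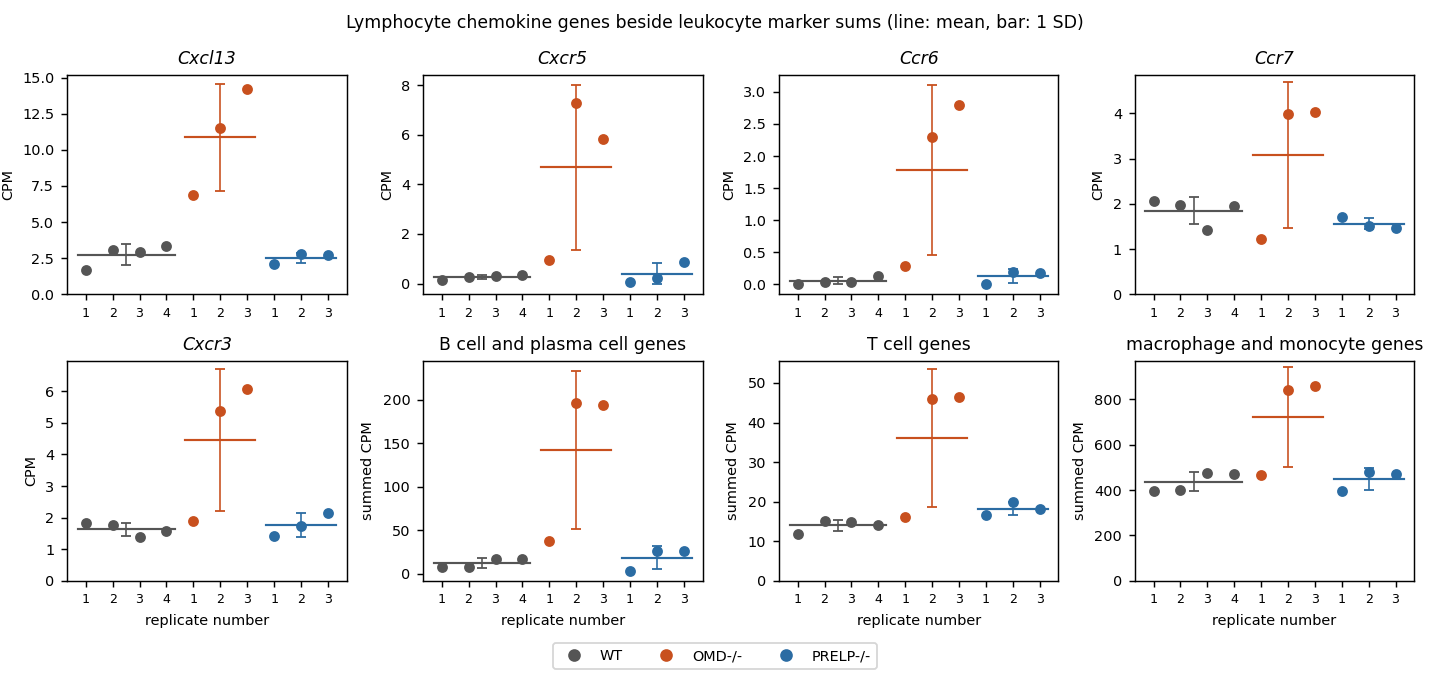
CPM of Cxcl13, Cxcr5, Ccr6, Ccr7 and Cxcr3 in each library beside the summed CPM of 3 leukocyte marker lists, with the mean and 1 SD of each group. OMD-/- replicates 2 and 3 are the highest in all 8 panels. OMD-/- replicate 1 lies above every WT library except in the panels of Ccr7 and of macrophage and monocyte genes. For Cxcr3 and T cell genes it does so only narrowly.

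Ccl25 was the one member that passed in both knockouts, and the one member that fell in either of these fits. With the Y chromosome covariate 15 of 38 members passed in OMD-/-, 12 higher and 3 lower. Of all 16647 genes, 2920 were higher and 2867 lower under that setting. Without WT replicate 1 there were 9 of 38 members, with 2 lower, while 2339 of 16415 genes were higher and 2511 lower. Ccl25, known as the chemokine that directs Ccr9-bearing lymphocytes to thymus and small intestine, had 4.53, 3.84, 3.99 and 4.39 CPM in WT, 1.84, 1.57 and 2.42 CPM in OMD-/- and 2.22, 1.92 and 1.84 CPM in PRELP-/-. All 6 knockout libraries were well below all 4 WT libraries, and no library stood apart within its group. The log2 fold change was -1.11 (SE 0.22, adjusted p = 0.00399, edgeR) in OMD-/- and -1.09 (SE 0.20, adjusted p = 0.0135, edgeR) in PRELP-/-, or 0.463 and 0.468 of the WT level. Both comparisons share the WT libraries and are not independent. In PRELP-/- the call was lost with the replicate number as a block and without PRELP-/- replicate 2 or 3, the highest adjusted p being 0.158 (edgeR), while the log2 fold change stayed between -1.07 and -1.04. The annotated gene lies at 8:4325210-4360020 and shares 204 of its 7445 exon bases with Elavl1 on the opposite strand, a gene at 69.0 CPM, and without the strand setting reads of these bases cannot be assigned. Its receptor Ccr9 had means of 0.0737, 0.0479 and 0.0279 CPM per kb in WT, OMD-/- and PRELP-/- and did not pass (log2 -0.65, SE 0.52, and -1.42, SE 0.56), and its exons also overlap other genes.

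Ccr10, a receptor of skin and mucosal lymphocytes, was also lower, without passing. It ranged from 0.399 to 1.05 CPM in WT, from 0.236 to 0.503 CPM in OMD-/- and from 0.114 to 0.240 CPM in PRELP-/-, and the PRELP-/- libraries did not overlap WT. The log2 fold changes were -1.09 (SE 0.49, adjusted p = 0.12, edgeR) in OMD-/- and -1.83 (SE 0.51, adjusted p = 0.0638, edgeR) in PRELP-/-. Its ligands Ccl27a and Ccl28, made by epithelia, changed by -0.71 (SE 0.40) and 0.10 (SE 0.52) in OMD-/- and by -0.80 (SE 0.51) and -0.05 (SE 0.45) in PRELP-/-.

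The monocyte-attracting CC chemokines did not pass in either knockout, and most of them split the WT libraries into a lower and a higher pair. The cluster at 11:82035571-82116799 holds Ccl2, Ccl7, Ccl11, Ccl12 and Ccl8, and the neighbouring cluster at 11:83525778-83593087 holds Ccl5, Ccl9 and Ccl6. Ccl8 had 3.67, 2.93, 7.27 and 7.53 CPM in WT, 4.71, 10.1 and 12.4 CPM in OMD-/- and 8.64, 3.05 and 3.81 CPM in PRELP-/-. Ccl6, which macrophages make constitutively, had 6.20, 7.12, 15.5 and 14.9 CPM in WT, 7.26, 16.7 and 15.1 CPM in OMD-/- and 23.9, 10.5 and 8.96 CPM in PRELP-/-. WT replicates 3 and 4 were at least as high in both genes as the lower knockout libraries, so the groups overlapped. Ccl9 had 6.32, 4.02, 7.84 and 8.68 CPM in WT, 6.08, 10.1 and 8.73 CPM in OMD-/- and 16.5, 6.29 and 6.89 CPM in PRELP-/-. Ccl5, a product of T cells, had 3.27, 3.58, 5.10 and 3.81 CPM in WT, 2.26, 7.34 and 7.40 CPM in OMD-/- and 5.45, 3.33 and 2.62 CPM in PRELP-/-. For these 4 genes the log2 fold changes lay between 0.26 and 0.77 in OMD-/- and between -0.08 and 0.53 in PRELP-/-.

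Ccl12 had the most negative estimate in OMD-/-, -1.36 (log2, SE 0.65), and in PRELP-/- it was -1.18 (SE 0.72). Yet its WT libraries ranged from 0.698 to 2.88 CPM, and the adjusted p was 0.142 and 0.322 (edgeR). Ccl2, the main ligand of Ccr2, changed by -0.56 (SE 0.68) and -1.44 (SE 0.78), and Ccl7 by -0.88 (SE 0.70) and -1.01 (SE 0.78). Neither passed. The eosinophil chemokines Ccl11 and Ccl24 changed by -0.10 (SE 0.37) and -0.74 (SE 0.41) in OMD-/- and by 0.28 (SE 0.45) and -0.13 (SE 0.50) in PRELP-/-, again without a call. Cxcl15 was between 0.439 and 1.99 CPM in all libraries and did not pass.

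Receptor genes Ccr9, Cxcr6, Ccr1 and Ccr2 lie together at 9:123678439-124113557, and none of these 4 passed. Ccr2, the receptor of inflammatory monocytes, had 12, 9.96, 24.4 and 27.5 CPM in WT, 9.24, 18.4 and 16.0 CPM in OMD-/- and 14.8, 13.2 and 14.8 CPM in PRELP-/-. All knockout libraries fell between the lower and the higher pair of WT libraries apart from OMD-/- replicate 1, which was below both. Ccr1 changed by -0.14 (log2, SE 0.37) and -0.10 (SE 0.45). Over the 38 tested members, 22 were higher in both WT replicates 3 and 4 than in both WT replicates 1 and 2, and 9 were lower in both. The corresponding shares of all tested genes were 28.1% and 32%.

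Atypical receptors were led by Ackr3, described above. Ackr1, the Duffy antigen receptor of venules and red cells, had 3.85, 5.07, 3.01 and 4.61 CPM in WT, 5.70, 6.57 and 7.81 CPM in OMD-/- and 12, 5.57 and 6.53 CPM in PRELP-/-. All knockout libraries were above WT, with PRELP-/- replicate 1, the library rich in blood genes, far above the rest. This was a log2 difference of 0.70 (SE 0.21, adjusted p = 0.0285, edgeR) in OMD-/- and 0.93 (SE 0.30, adjusted p = 0.0928, edgeR) in PRELP-/-. The call in OMD-/- was lost under 5 of 15 alternatives, leaving out WT replicate 1 or 3 or OMD-/- replicate 2 or 3 among them, and in PRELP-/- the gene passed under the same 3 settings as Cxcl14. Ackr1 shares 361 of its 1405 exon bases with Cadm3 on the same strand, a gene at 61.9 CPM, so its count is uncertain. Ackr2, a scavenger of inflammatory CC chemokines, and Ackr4, a scavenger of Ccl19, Ccl21 and Ccl25, were low (0.160 and 0.115 CPM per kb in WT) and did not pass in OMD-/- (log2 0.08, SE 0.75, and 0.47, SE 0.46). Ackr2 was too low to be tested in PRELP-/-.

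The neutrophil chemokines Cxcl1, Cxcl2, Cxcl3 and Cxcl5 were at or near the floor of detection. Cxcl1 had at most 5 counts in any library, Cxcl2 at most 5, Cxcl5 at most 2 and Cxcl3 at most 1, and their receptors Cxcr2 and Cxcr1 had at most 16 and 6. Ccl3 and Ccl4, products of activated macrophages and T cells, had at most 14 and 11 counts, Ccr8 at most 6, Ccr3 at most 5, Cxcl17 at most 2, and Ccl1 and Ccl27b at most 1. No count was found for 11 gene entries, which were Ccl20, Ccl26 and the 9 copies of Ccl19, Ccl21a, Ccl21b and Ccl27. A count of 0 allows up to 3 counts, which is between 0.0598 and 0.170 CPM depending on the library, and covers counting error only. At this depth differences in these genes were not detectable.

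PRELP-/- and OMD-/- differed in none of the 34 tested members at an adjusted p under 0.05 (edgeR), where 0.00633% of all genes passed, that is 1 of 15805, and DESeq2 called 2 members, Cxcl13 and Cxcr5. At an unadjusted p under 0.05, 6 members differed, all lower in PRELP-/-, against 4.51% of all genes at that threshold and 3.04% lower, and the members' smallest adjusted p was 0.69. Cxcl13 had the largest separation relative to its error, with a log2 difference of -2.10 (SE 0.31, unadjusted p = 0.000276, edgeR), and others among the 6 were Cxcr5 at -3.54 (SE 0.96), Cx3cr1 at -0.63 (SE 0.19), Cxcr3 at -1.33 (SE 0.45) and Cxcr4 at -0.83 (SE 0.32). Cxcr5 had 1, 6 and 19 counts in PRELP-/- and passed the filter on low counts here only through the OMD-/- libraries. Its estimate is therefore imprecise, and its DESeq2 call gives no separate support. No label pairs the libraries of these groups. Same-numbered libraries deviated together only weakly (correlations of 0.303, 0.181 and 0.148), and OMD-/- replicate 1 was closest to PRELP-/- replicate 2. With the number as a block Cxcl13 passed (log2 -2.07, adjusted p = 0.0357, edgeR), 1 of 43 genes that did. That pairing was inferred from these same data, so the block gives no separate support for the difference. Members whose differences from WT had the same sign in both knockouts, and whose groups did not overlap WT in either, were Cx3cr1, given above, and Ccl25, Cxcl14, Cx3cl1, Cxcl16 and Ackr1. For these last 5 the differences between the knockouts were 0.03 (SE 0.26), -0.06 (SE 0.20), -0.10 (SE 0.23), -0.12 (SE 0.13) and 0.24 (SE 0.31). Among all genes, 38.9% did not overlap WT in OMD-/- and 30% in PRELP-/-, with the same WT libraries in both. The share of all genes that did so in both was not counted, so the list describes these genes and shows no excess among members.

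Other genes of the chemokine system were counted by lists. Of 12 chemokine-system genes outside the naming rule, 10 were tested in OMD-/-, and 3 rose and 1 fell, where 29.4% of all genes passed. Cd74, the invariant chain and receptor of Mif, rose by 1.35 (log2, SE 0.18), the chemerin gene Rarres2 by 0.53 (SE 0.15) and the chemerin-binding receptor gene Ccrl2 by 0.54 (SE 0.17), while Pitpnm3 fell by 1.03 (SE 0.20), all at an adjusted p of at most 0.0343 (edgeR). Of 26 genes for signalling below chemokine receptors, 10 rose and 1 fell in OMD-/-, against 14.3% and 15.1% of all genes. Those with the smallest adjusted p were Gnai2, the inhibitory G protein subunit used by these receptors (0.46, SE 0.09), Rac2 (1.63, SE 0.30), Rac1 (0.36, SE 0.08) and Was (1.33, SE 0.28). Rac2, Was, Dock2 and Vav1 are known from leukocytes, and 4 of 5 general leukocyte markers rose in the same comparison, with sums of 213 to 257 CPM in WT and 290, 474 and 482 CPM in OMD-/-. Their part was not tested. The median log2 fold changes of the lists were 0.53 and 0.23. In PRELP-/- none of either list passed, where 7.29% of all genes did, with medians of 0.47 and 0.04.

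Among 21 tested inducers and regulators of chemokine transcription, 9 rose and 2 fell in OMD-/- (29.4% of all genes passed), and the 2 that fell also fell in PRELP-/-, where no other gene of the list passed (7.29% of all genes did). Zc3h12a, an RNase that degrades inflammatory mRNAs, fell by 1.69 (log2, SE 0.13, adjusted p = 1.74e-05, edgeR) in OMD-/- and by 2.39 (SE 0.18, adjusted p = 0.000258, edgeR) in PRELP-/-. Nfkbiz, a nuclear co-factor of NF-kB, fell by 2.03 (SE 0.23) and by 2.88 (SE 0.24). The rises in OMD-/- were smaller, with Rela at 0.42 (SE 0.08) and Tnfrsf1b at 0.93 (SE 0.19) among them. Of 12 tested adhesion molecules of leukocyte traffic, 6 rose in OMD-/- (14.3% of all genes rose), including Selplg by 0.99 (SE 0.16), Itgb7 by 1.19 (SE 0.23), Itgb2 by 1.0 (SE 0.20) and Itgal by 1.37 (SE 0.32), and none passed in PRELP-/-. The medians were 0.54 and 0.13. Most of these adhesion genes are expressed by leukocytes, whose marker sums varied as given above, and the part of those cells was not tested.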

How the data were processed

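RNA of bladder samples from C57BL/6 mice (host strain C57BL/6J in the study's text, 4 WT, 3 OMD-/- and 3 PRELP-/-) was sequenced by the authors after poly(A) selection, with dUTP strand marking and adaptors that carry molecular identifiers. Labels give each library as 1 bladder sample and do not say whether same-group samples came from separate animals, so p-values measure the spread between these samples. The study's text gives other numbers of WT and OMD-/- animals than there are libraries here. The deposited files hold raw read counts, 1 integer per gene and library, without normalization, and their headers name HISAT2 and featureCounts. The submitters' processing notes list bcl2fastq, STAR 2.5.2b, featureCounts and DESeq2, with builds GRCm38 and hg38, without roles. Whether counting used strand or the identifiers is not given in the sources used here. The authors also deposited DESeq2 comparisons of each knockout with WT (mean counts, fold changes and p-values), which were not used. All 55536 gene identifiers matched GENCODE vM21 (GRCm38), the source of symbols, exon lengths and coordinates.

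Comparisons were fitted separately, each with its 2 groups, in R 4.3.3 with edgeR 4.0.16 (TMM, filterByExpr by group, robust quasi-likelihood test, two-sided) and Benjamini-Hochberg adjustment over all genes tested, with a threshold of 0.05. The script was tested on simulated counts. DESeq2 1.42.0 and limma 3.58.1 served as alternatives, beside other scaling factors, no filter, a fit over all groups, a replicate block, a covariate for Y chromosome counts (over 10 CPM) and leaving out each replicate. Pairing was checked by correlating deviations from the group means of same-numbered libraries. These were 0.303, 0.181 and 0.148 between PRELP-/- and OMD-/-, a hint of pairing from the data that no label states. With WT they lay between -0.0998 and 0.137, and no pairing was taken there. The members and lists were chosen with earlier results of these data known. Values in every library were given for members that passed or averaged at least 5 CPM in a group, and up to 4 genes with the smallest adjusted p were named per list, and 1 tested member is counted but not reported here. Promoters came from RefSeq (GRCm38.p6), which held 8 of the 10 members that passed. Depth, between 20391437 and 46269079 counts, sets a floor of 3 counts.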

Additional observations from a re-analysis of the deposited data

How the results depend on the processing

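In OMD-/-, Ccl25, Cx3cl1, Cx3cr1, Cxcl13, Cxcl14 and Cxcr5 passed in the same direction under all 15 alternatives. These reuse the same libraries. Cxcr5 had at most 8 counts per WT library and passed the filter on low counts only through OMD-/-, so its calls give no separate support. Ackr1 and Cxcl16 each missed the threshold under 5, Ccl22 under 6 and Cxcr3 under 2. Members called in OMD-/- were 10, and between 6 and 15 when a replicate was left out, 6 without OMD-/- replicate 2 or 3 and 15 without replicate 1. The fit over all 3 groups called 2485 genes in OMD-/- rather than 4899, and leaving out replicates gave between 2951 and 4850. In PRELP-/- the 1 member called became 5 with DESeq2, 5 in the fit over all groups, 12 with limma-voom and 0 with the replicate block, and between 0 and 2 without a replicate. Cxcl14, Cx3cl1 and Ackr1 gained a call with DESeq2, limma-voom and the fit over all groups. The 1209 genes called there became 2925 with DESeq2, 2485 in the fit over all groups, 6829 with limma-voom, 111 with the replicate block and 536 with the Y chromosome covariate, and between 475 (without PRELP-/- replicate 2) and 3807 (without PRELP-/- replicate 1) without a replicate. Between the knockouts the count of members, 0, became 2 with DESeq2, 1 without the filter, 14 with limma-voom and 1 with the replicate block, and between 0 and 1 without a replicate, the 1 arising without OMD-/- replicate 1. The 1 gene called there became 54, 5, 1291 and 43 under the same settings, 3 in the fit over all groups and 2 with the Y covariate, and between 1 and 36 without a replicate. In PRELP-/- the Cxcl13 and Cxcr3 differences from WT, which did not pass, changed sign. Cxcl13 was 0.01 with limma-voom, 0.11 with the Y covariate and between -0.32 and 0.02 without a replicate, and Cxcr3 was -0.03 with the Y covariate and between -0.07 and 0.25 without a replicate. The causes were not tested. Limits are the groups of 3 and 4 libraries, the Y chromosome counts, which are unbalanced in both comparisons with WT, and PRELP-/- replicate 1, which stands apart, and 25 members were too low to be tested at this depth.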
